A study of Mus musculus with 4 samples.

Results

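The Hox genes of the mouse thoracic aorta were followed across 4 single-cell libraries, as every gene row whose symbol names a member of the HoxA, HoxB, HoxC or HoxD cluster. The rows numbered 31 of 17524 genes, with 10 in HoxA, 9 in HoxB, 7 in HoxC and 5 in HoxD. By paralogue number, 6 belonged to paralogues 1 to 3, 15 to paralogues 4 to 8 and 10 to paralogues 9 to 13, the last called posterior here. The highest paralogue with a row was 11, and 8 other Hox genes of the annotation were not analysed here. Each library pooled the thoracic aortas of 3 mice, freed of fat, digested and sorted for viable cells. The WT saline library came from wild-type mice given a normal diet and saline. The WT AngII library came from wild-type mice on a high fat diet for 5 weeks that also received angiotensin II, a peptide that raises blood pressure, for 7 days. The KO saline and KO AngII libraries came from mice labelled as knockouts of Sting, the cytosolic DNA pathway adaptor, given the same 2 regimens. Diet and angiotensin II came together and cannot be told apart. Each group is 1 pooled library, so a difference between libraries had no replicate, and intervals below cover counting error only.

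Hox proteins are homeodomain transcription factors that give cells positional identity along the head-to-tail axis. Within each cluster, genes of low paralogue number lie at one end and are switched on first and nearest the head, and genes of high number follow later and nearer the tail. Adult vascular cells keep part of this embryonic pattern, and the aorta draws its smooth muscle from several embryonic sources, including neural crest in the arch and paraxial mesoderm in the descending segment. PBX and MEIS proteins of the TALE homeodomain class bind DNA with Hox proteins. Retinoic acid and CDX factors act on the clusters in the embryo, and Polycomb and Trithorax complexes keep their genes off or on.

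On GRCm38 the members lie in 4 clusters. HoxA is on chromosome 6, where Hoxa2 lies at 52162417-52164831 (minus strand) and Hoxa11 at 52242106-52245810. HoxB is on chromosome 11, from Hoxb9 (96271457-96276595, plus strand) to Hoxb1 (96365752-96368256). HoxC is on chromosome 15, from Hoxc11 (102954427-102957708, plus strand) to Hoxc4 (103018934-103036852), and HoxD on chromosome 2, from Hoxd11 (74679557-74687016, plus strand) to Hoxd4 (74711929-74729160). Of 31 members, 14 overlap another gene model on the same strand in the GENCODE annotation, 10 of them another Hox gene, and 13 have an antisense partner. The Hoxa3 model (52169062-52213336) spans Hoxa4, Hoxa5 and Hoxa6. The Hoxc5 model (102967443-103017429) spans Hoxc6, Hoxc8 and Hoxc9 and overlaps Hoxc10. Counts of these genes are uncertain where the counting could have assigned a molecule to a neighbour.

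The 250 bases upstream of 4 start sites show the control regions of members on which the results turn. Sequences are from RefSeq, build GRCm38.p6, 5′ to 3′ on the gene's strand, with capitals for matches on either strand to TTTATG (CDX) or TGATNNAT (PBX-HOX), and for TAATTA (homeodomain core). Hoxa7 had the most Hox UMIs in smooth muscle, and Hoxb8 was found in the same cells more often than if the 2 were independent. In smooth muscle, Hoxa10 and Hoxd8 were high in 1 library, and both were also found in endothelial cells.
Hoxa7 (chr6:52218574-52218823, minus strand): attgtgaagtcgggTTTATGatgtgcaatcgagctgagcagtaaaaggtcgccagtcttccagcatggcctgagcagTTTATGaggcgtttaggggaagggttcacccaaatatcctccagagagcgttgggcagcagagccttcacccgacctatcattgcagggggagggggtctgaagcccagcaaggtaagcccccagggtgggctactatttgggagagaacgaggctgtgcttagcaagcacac
Hoxb8 (chr11:96281655-96281904, plus strand): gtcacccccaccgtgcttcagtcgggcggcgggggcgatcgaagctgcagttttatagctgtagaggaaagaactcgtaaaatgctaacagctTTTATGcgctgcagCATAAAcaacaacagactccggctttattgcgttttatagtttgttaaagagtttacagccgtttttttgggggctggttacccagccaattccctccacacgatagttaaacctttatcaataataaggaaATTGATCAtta
Hoxa10 (chr6:52240855-52241104, minus strand): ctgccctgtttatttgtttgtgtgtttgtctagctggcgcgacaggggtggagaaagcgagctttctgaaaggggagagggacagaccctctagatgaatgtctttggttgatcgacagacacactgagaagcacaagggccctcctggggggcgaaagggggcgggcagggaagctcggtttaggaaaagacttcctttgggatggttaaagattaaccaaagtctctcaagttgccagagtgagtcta
Hoxd8 (chr2:74704365-74704614, plus strand): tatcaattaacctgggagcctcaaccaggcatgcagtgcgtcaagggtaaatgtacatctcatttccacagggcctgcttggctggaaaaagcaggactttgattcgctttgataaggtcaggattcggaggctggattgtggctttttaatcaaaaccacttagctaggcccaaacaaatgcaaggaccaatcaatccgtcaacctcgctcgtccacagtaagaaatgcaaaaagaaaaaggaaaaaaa
The Hoxa7 window, which lies within the longer GENCODE gene model, held 2 TTTATG matches. The Hoxb8 window held 2 TTTATG matches and 1 TGATNNAT match. The Hoxa10 and Hoxd8 windows held none of these letters, which says nothing of the factors. The table held 19 windows for 17 members. Of them, 21.1% held TTTATG and 21.1% held TGATNNAT, against 10.8% and 7.68% of all 32851 windows of that length. TAATTA was in 10.5% of member windows and 4.84% of all.

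The libraries held 8495 to 12053 cells and 60064038 to 94698727 unique molecular identifiers (UMIs, each a counted RNA molecule). The median was 5888 and 6071 UMIs per cell in the saline libraries and 9938 and 9294 in the AngII libraries, WT first, so shares of positive cells are also given after thinning each cell to 3000 UMIs. Pairs of libraries shared 92 to 148 cell barcodes. Tmem173, the gene of Sting, had 105 and 637 UMIs in the WT libraries (saline, then AngII) and 102 and 578 in the KO libraries. It was thus not lower with the KO label, so these counts do not bear out the genotype, which rests on the labels. A 3′ tag may lie outside the altered part, which was not tested. Values come in this order of libraries throughout. The KO AngII library stood apart in posterior Hox RNA, as set out below.

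Smooth muscle cells (at least 3 UMIs of Myh11, under 10 of Dcn plus Lum) numbered 7373, 5669, 9890 and 5427. Fibroblasts (at least 10 of Dcn plus Lum, at most 1 of Myh11) numbered 1021, 1696, 506 and 1879. Smooth muscle markers summed to 32270 to 40176 CPM (UMIs per 1000000 of the gate, not divided by gene length, since each molecule is counted once at its 3′ end) in the first and to 1085 to 4629 in the second, and fibroblast markers to 416 to 1218 and to 14067 to 20432. Cells with at least 2 UMIs of Pecam1 plus Cdh5, the endothelial rule, numbered 1267, 177, 373 and 147, but 81.3%, 41.2%, 73.2% and 34.7% of them also met the smooth muscle rule. Endothelial values below therefore use a stricter gate, chosen after this was seen: at least 4 of Pecam1 plus Cdh5, at most 1 of Myh11 and under 10 of Dcn plus Lum. It held 99, 19, 47 and 38 cells, with endothelial markers at 3908 to 5764 CPM and smooth muscle markers still at 1498 to 2699 CPM. A leukocyte gate of 239, 612, 58 and 468 cells gave the background.

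Hox RNA was widespread in the vessel wall and low in leukocytes. Summed over the 31 genes, smooth muscle carried 313 (95% interval 309-318), 240 (236-244), 310 (306-314) and 233 (229-237) CPM. Fibroblasts carried 346, 247, 341 and 298 CPM, and stricter endothelial cells 616, 248, 477 and 421. Leukocytes carried 26.9, 10.0, 56.7 and 9.76 CPM. After thinning, 56.5%, 49.4%, 56.3% and 50.0% of smooth muscle cells had a Hox UMI, against 5.63%, 2.94%, 9.80% and 1.5% of leukocytes. Unthinned, the shares were 78.3%, 83.6%, 75.2% and 81.1% in smooth muscle and 9.21%, 8.01%, 19.0% and 6.62% in leukocytes, whose median depths were 4480, 7454, 5382 and 7168 UMIs against 6371, 10220, 6519 and 8527. Both AngII libraries had a lower summed Hox CPM in smooth muscle than both saline libraries.

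In smooth muscle most Hox RNA came from HoxA and HoxB and from paralogues below 9. There, paralogues 4 to 8 gave 63.3%, 59.0%, 62.9% and 56.6% of Hox UMIs, and paralogues 1 to 3 gave 35.3%, 39.9%, 36.0% and 31.9%. HoxB gave 50.8%, 54.2%, 52.2% and 45.2% and HoxA 46.6%, 44.0%, 45.5% and 43.6%. HoxC gave 2.23%, 1.60%, 1.97% and 9.42% and HoxD 0.304%, 0.149%, 0.249% and 1.84%. The KO AngII library was the highest of the 4 for HoxC and HoxD, and its intervals did not overlap those of the others.

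**Figure D1:**
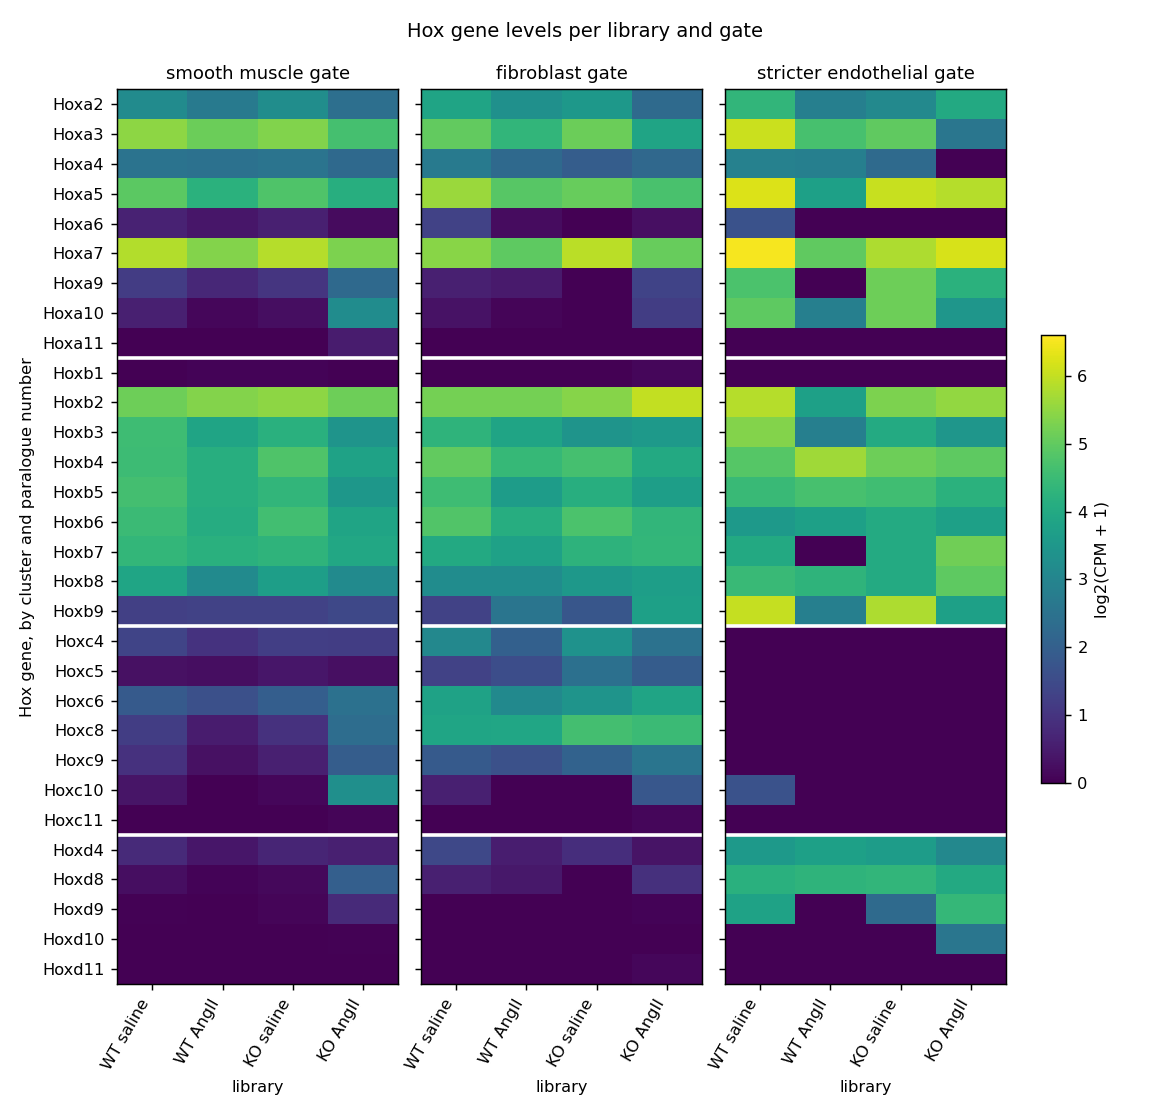
Level of 30 of the 31 Hox genes as log2(CPM + 1) in each library (columns), for the smooth muscle, fibroblast and stricter endothelial gates (panels), with white lines between clusters. Central HoxA and HoxB rows are bright in all 3 gates, HoxC rows are brighter in fibroblasts and near 0 in endothelial cells, and Hoxa10 and Hoxc10 stand out in KO AngII smooth muscle at 8.28 and 8.81 CPM.

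Among paralogues 1 to 3, which in the embryo act in the hindbrain and pharyngeal arches, Hoxa3 and Hoxb2 led. Hoxa3, needed for thymus and parathyroid formation, was at 43.5, 33.6, 40.0 and 24.0 CPM in smooth muscle. Hoxb2 was at 34.4, 40.7, 43.5 and 34.6 CPM. Hoxa3 was lowest in KO AngII, while Hoxb2 did not separate the treatments. Hoxb3 was at 22.5, 13.5, 17.2 and 9.63 CPM and Hoxa2 at 8.06, 5.58, 8.36 and 4.36 CPM. Hoxb1 had 6 UMIs in all smooth muscle.

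Among paralogues 4 to 8, which pattern the neck and trunk, Hoxa7 was the highest of all members in smooth muscle at 55.9, 40.8, 57.0 and 38.3 CPM. It was found in 26.0%, 28.5%, 25.5% and 26.1% of cells, or 14.7%, 11.6%, 15.4% and 10.6% after thinning. In leukocytes its unthinned shares were 1.67%, 0.490%, 3.45% and 0. Hoxa5, which in the embryo takes part in lung and cervical patterning, was at 29.6, 17.7, 26.6 and 16.6 CPM. The HoxB genes were of similar size: Hoxb4 was at 22.2, 16.7, 26.5 and 12.9 CPM, Hoxb5 at 23.9, 16.5, 19.4 and 10.3, Hoxb6 at 21.8, 16.1, 23.1 and 13.4, Hoxb7 at 19.5, 17.4, 18.7 and 14.7 and Hoxb8 at 13.6, 7.93, 11.9 and 7.96. For Hoxa5, Hoxa7 and each of these HoxB genes, both AngII libraries were below both saline libraries. Hoxa4 was at 4.66, 4.52, 4.84 and 3.77 CPM. Of the rest, Hoxc4, Hoxc6 and Hoxd4 lay between 0.310 and 4.54 CPM, and Hoxc5 and Hoxa6 between 0.142 and 0.544 CPM.

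Posterior genes, which pattern the lumbosacral trunk, limbs and urogenital tract, were sparse in 3 libraries and common in the KO AngII library. In smooth muscle, Hoxa10 had 26, 5, 12 and 465 UMIs, or 0.505, 0.0816, 0.178 and 8.28 CPM. Hoxc10 had 15, 0, 6 and 495 UMIs, or 0.291, 0, 0.0888 and 8.81 CPM. The KO AngII library alone was high for both. All 4 libraries are labelled thoracic aorta without the levels at which the aorta was cut, so in this library the segment taken, the treatment and the genotype cannot be told apart. This holds for every posterior difference of that library below. Hoxa9 followed at 1.26, 0.653, 1.02 and 3.81 CPM, Hoxc9 at 0.913, 0.229, 0.489 and 2.87 CPM and Hoxd9 at 0.0194, 0, 0.0592 and 0.712 CPM. Hoxa11, a gene of forearm and uterus development, had 24 UMIs in KO AngII and 0 in each other library. Hoxb9 was level, at 1.36, 1.49, 1.45 and 1.69 CPM. Hoxc11, Hoxd10 and Hoxd11 had 4, 2 and 1 UMIs, all in KO AngII. Hoxc8 and Hoxd8, of paralogue 8, had the same pattern, at 1.30, 0.424, 0.933 and 4.13 CPM and at 0.194, 0.0490, 0.104 and 3.03 CPM.

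Posterior genes gave 1.39% (1.21-1.58), 1.02% (0.863-1.19), 1.06% (0.927-1.21) and 11.5% (10.9-12.0) of smooth muscle Hox UMIs. In fibroblasts they gave 1.54% (0.971-2.33), 3.04% (2.55-3.59), 1.66% (0.910-2.77) and 7.67% (7.07-8.30). The KO AngII library was highest in both gates, with Hoxb9 giving 308 of its 563 posterior UMIs in fibroblasts. After thinning, 1.13%, 0.582%, 0.978% and 8.37% of smooth muscle cells had a posterior UMI, against 0, 0, 0 and 0.427% of leukocytes. Exact 95% intervals of the leukocyte zeros, in 213, 612 and 51 cells, reach 1.72%, 0.601% and 6.98%, above the 3 low smooth muscle shares. So few leukocytes cannot show whether those shares lie above background. Pericyte markers (Kcnj8, Abcc9 and Rgs5) in smooth muscle summed to 340, 409, 555 and 1084 CPM, none at 0, and so were also highest in KO AngII. Their part in the result was not tested.

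**Figure D2:**
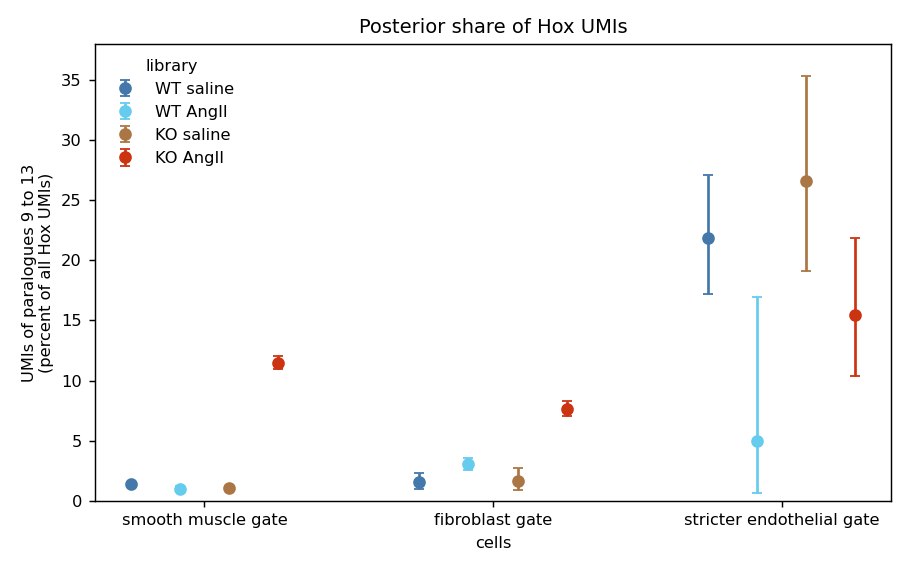
UMIs of paralogues 9 to 13 as percent of all Hox UMIs (y axis) per gate (x axis) and library (colours), with exact 95% binomial intervals. KO AngII is at 11.5% in smooth muscle and 7.67% in fibroblasts, above the other 3 libraries. The stricter endothelial gate lies at 15.5% to 26.6% in 3 libraries and at 5.00% in WT AngII, which rests on 40 Hox UMIs.

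Fibroblasts differed from smooth muscle mainly in HoxC. Compared within the 4 libraries with edgeR's quasi-likelihood test, library as a block and Benjamini-Hochberg adjustment over 14473 genes, 7 of 25 testable Hox genes were higher in fibroblasts, 6 lower and 12 neither. Of all genes tested, 24.3% were higher and 24.7% lower, so the shares of members, near these, were no result in themselves. Their median log2 fold change was 0.02, against -0.02 for all genes. A gene that passed the low-count filter had to be detected in 1 of the gates, and 6 members did not. The p-values here measure the spread between the 4 libraries.

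Among the genes higher in fibroblasts, 5 were HoxC genes. Hoxc8, which patterns the thoracic skeleton, was at 13.9, 13.9, 23.8 and 21.6 CPM in fibroblasts, above smooth muscle in every library. Its log2 fold change was 3.63 ± 0.44 (SE; adjusted p 0.00056). Hoxc6 was at 12.9, 7.83, 9.70 and 13.6 CPM, and its log2 fold change was 1.74 ± 0.16 (adjusted p 0.00016). Hoxc4 was at 7.53, 3.08, 9.29 and 4.63 CPM, with 1.99 ± 0.24 (adjusted p 0.00051). All 3 were higher in fibroblasts in 4 of 4 libraries. Hoxc5, at 1.46 to 4.44 CPM, gave 3.34 ± 0.33 (adjusted p 0.00023) and Hoxc9, at 2.12 to 4.91 CPM, gave 1.76 ± 0.44 (adjusted p 0.015), but the overlapping Hoxc5 model makes this group uncertain gene by gene. Outside HoxC, Hoxb9 was at 1.46, 4.92, 2.42 and 12.5 CPM in fibroblasts, with 1.57 ± 0.45 (adjusted p 0.023). Without the KO AngII library it was 0.94, and without WT AngII 1.49, and in neither fit was it called. Hoxa5 was at 47.6, 28.3, 32.7 and 25.0 CPM, with 0.45 ± 0.11 (adjusted p 0.013).

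The genes lower in fibroblasts were all of HoxA and HoxC. Hoxa3, at 31.6, 19.4, 33.9 and 13.5 CPM in fibroblasts, was below smooth muscle in every library, at -0.72 ± 0.12 (adjusted p 0.0026). Hoxa7 was at 42.3, 30.4, 59.4 and 32.7 CPM, with -0.38 ± 0.11 (adjusted p 0.025), and was lower in 3 of 4 libraries. Hoxa9 gave -1.40 ± 0.37 (adjusted p 0.018). Hoxa10 gave -2.47 ± 0.45 (adjusted p 0.0037) and Hoxc10 -1.64 ± 0.53 (adjusted p 0.044), and both rest on the KO AngII library: without it Hoxc10 was 0.27 and not called, and Hoxa10 was too low to test. In that fit 6 Hox genes were higher and 2 lower (Hoxa3 and Hoxb7), and Hoxa7 and Hoxa9 also lost their call. Without WT AngII, 4 were higher and 3 lower, and Hoxa5, Hoxa7, Hoxc9 and Hoxc10 lost theirs. The 12 called neither way were Hoxa2, Hoxa4, Hoxa6, Hoxd4, Hoxd8 and all HoxB genes from Hoxb2 to Hoxb8. Hoxb2 was at 36.2, 36.3, 41.6 and 62.3 CPM in fibroblasts, highest in KO AngII.

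**Figure D3:**
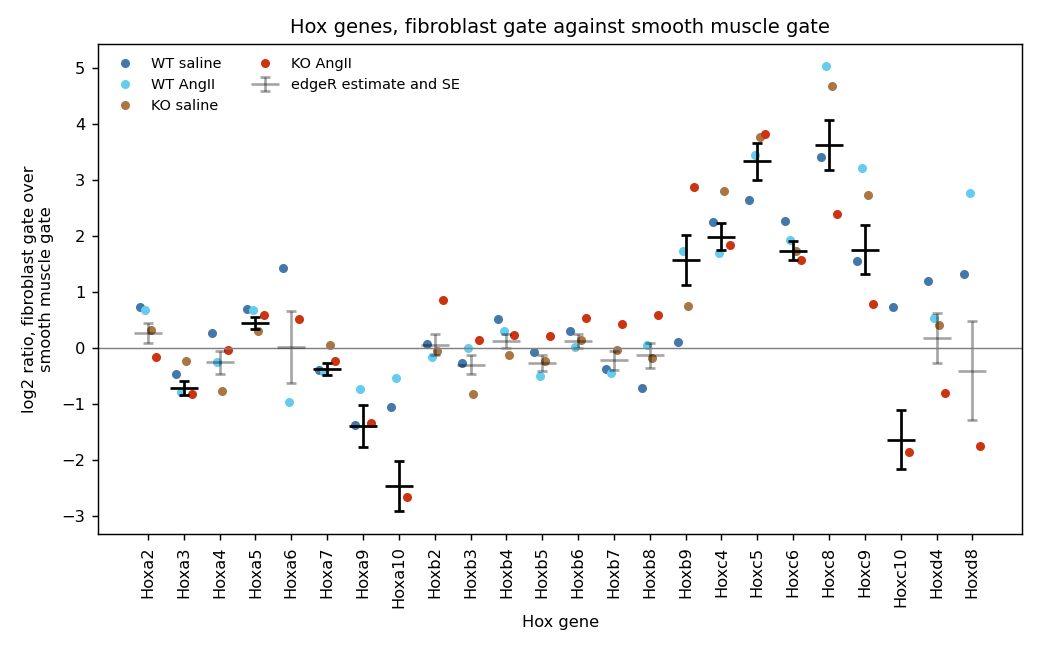
Log2 ratio of fibroblast over smooth muscle CPM (y axis) for 24 Hox genes (x axis), with 1 point per library where both counts were above 0, and the edgeR estimate with its SE in black, pale where not called. Hoxc4, Hoxc5, Hoxc6, Hoxc8 and Hoxc9 lie above 0 in all 4 libraries, and Hoxb2 to Hoxb8 lie around 0.

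Endothelial cells had posterior and HoxD genes and almost no HoxC. In the stricter gate against smooth muscle, a test added after seeing the data, edgeR called 7 of 25 testable Hox genes higher and 1 lower, where 12.8% and 15.5% of 13419 genes were called. Hoxd8 was at 17.1, 18.6, 19.2 and 15.0 CPM in endothelial cells, with a log2 fold change of 5.46 ± 0.93 (adjusted p 8.2e-05). Its level was above that of smooth muscle in each library. Hoxd4 was at 10.7, 12.4, 11.5 and 7.52 CPM, with 3.90 ± 0.73 (adjusted p 0.00023), and Hoxd9 at 12.8, 0, 3.84 and 20.1 CPM, with 5.83 ± 1.02 (adjusted p 0.00013). These HoxD values rest on 22, 13 and 15 UMIs.

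Posterior members were called in the same direction. Hoxb9 was at 64.2, 6.19, 53.8 and 12.5 CPM, with 4.05 ± 0.61 (adjusted p 2.1e-05). Hoxa10 was at 30.0, 6.19, 34.6 and 10.0 CPM, with 4.54 ± 0.99 (adjusted p 0.0012), and Hoxa9, a gene linked to endothelial identity, at 25.7, 0, 34.6 and 17.6 CPM, with 3.36 ± 0.66 (adjusted p 0.00040). The saline libraries were the higher for Hoxb9 and Hoxa10. Hoxa5 gave 0.96 ± 0.28 (adjusted p 0.014), but it was at -0.51 in WT AngII and lost its call without WT saline or without KO AngII (highest adjusted p 0.073). Of the HoxC genes only Hoxc10 had an endothelial UMI, 1 in WT saline. Hoxc6, with 0 UMIs in all 4 endothelial sums, was the 1 gene called lower (adjusted p 0.042), and it lost the call on leaving out any 1 library. Posterior genes gave 21.9% (17.2-27.1), 5.00% (0.611-16.9), 26.6% (19.1-35.3) and 15.5% (10.4-21.8) of endothelial Hox UMIs. The posterior-positive cells numbered 27, 2, 19 and 12, and Vwf, a clotting factor gene of endothelium, was found in 24, 2, 18 and 8 of them, while the lymphatic gene Prox1 was found in 0, 0, 0 and 2. Their median depths were 5540, 7209, 4871 and 8599.5 UMIs, against 3618, 6322, 3535.5 and 8967 in the other cells of the gate, and the part of depth was not tested.

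Within smooth muscle, the treatment comparisons set 1 library against another, and a gene was called when 2-fold apart with at least 50 UMIs over both. AngII against saline in WT gave 0 of 20 Hox genes higher and 3 lower, where 6.39% and 5.73% of all genes were higher and lower. The 3 were Hoxc9 (0.229 against 0.913 CPM, log2 ratio -2.00, interval -2.97 to -1.11), Hoxc8 (0.424 against 1.30, -1.62, -2.33 to -0.94) and Hoxd4 (0.310 against 0.738, -1.25, -2.13 to -0.42). The median log2 ratio of the 20 was -0.49 against -0.12 for all genes. Under TMM scaling all ratios in this comparison moved up by 0.12, which changed no count.

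AngII against saline in KO gave 6 of 23 higher and 1 lower, where the background was 6.13% and 6.38%. Hoxc10 was 99.2-fold higher (8.81 against 0.0888 CPM, log2 ratio 6.63, interval 5.50 to 8.09). Hoxa10 was 46.6-fold higher (log2 ratio 5.54, 4.72 to 6.51) and Hoxd8 29.2-fold (4.87, 3.79 to 6.20). Hoxc9, Hoxc8 and Hoxa9 gave log2 ratios of 2.55, 2.15 and 1.90. Hoxb4 was the 1 lower gene, at -1.04 (-1.17 to -0.92), and at -0.88 under TMM scaling, which moved all ratios up by 0.16, it was not called. The ratios of 15 of 23 genes were below 0, and for 13 of them the interval lay below 0. Among these were Hoxa2 at -0.94, Hoxb5 at -0.91 and Hoxb3 at -0.84, while Hoxc6, of the same central paralogues as Hoxb5 and Hoxb4, was above 0 at 0.63.

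KO against WT under saline gave 0 of 21 Hox genes higher and 0 lower, where 2.12% and 2.20% of genes were higher and lower. Under AngII, 7 of 22 were higher and 0 lower, where the background was 2.09% and 1.38%. Hoxc10 was at least 180-fold higher against the floor of 3 UMIs that replaces a count of 0, and Hoxa10 was 101-fold higher (log2 ratio 6.66, interval 5.43 to 8.29). Hoxd8, Hoxc9, Hoxc8, Hoxa9 and Hoxc6 gave log2 ratios of 5.95, 3.65, 3.28, 2.55 and 1.14. The comparison shares the KO AngII library with the one before, so the same library carries both sets of values.

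**Figure D4:**
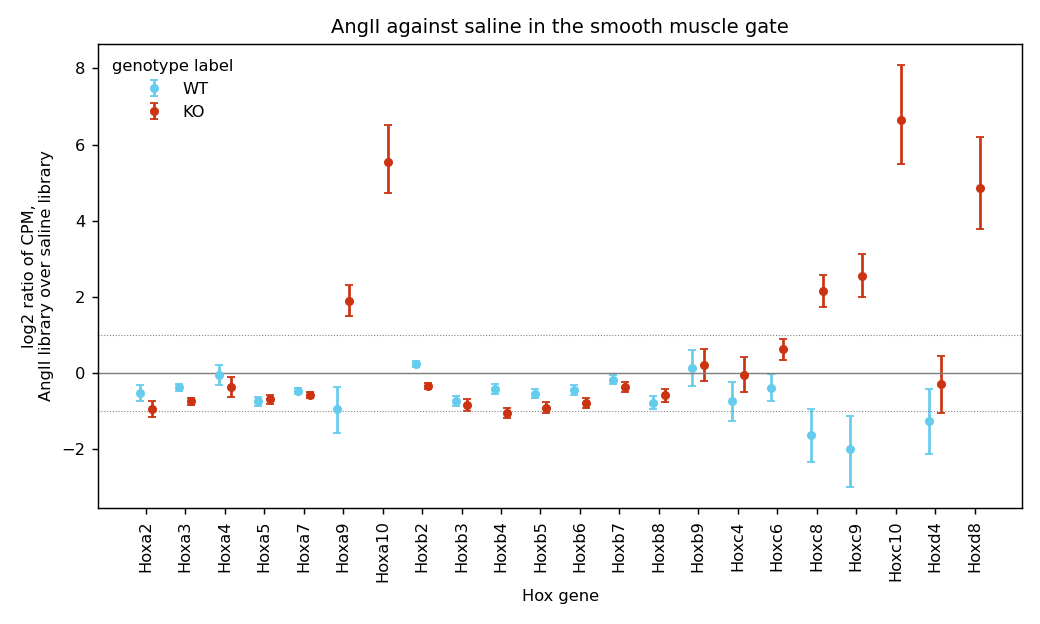
Log2 ratio of AngII over saline CPM in smooth muscle (y axis, dotted lines at 2-fold) for Hox genes with at least 50 UMIs (x axis), by genotype label, with exact 95% conditional intervals for counting error. KO points for Hoxa9, Hoxa10, Hoxc8, Hoxc9, Hoxc10 and Hoxd8 lie above 1, and WT points for Hoxc8, Hoxc9 and Hoxd4 lie below -1.

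In fibroblasts, AngII against saline in WT gave 1 of 16 higher and 1 lower, where the background was 7.59% and 8.15%. Hoxb9 was the higher gene (4.92 against 1.46 CPM, log2 ratio 1.75, 0.58 to 3.24) and Hoxc4 the lower (-1.29). In KO, 2 of 19 were higher and 3 lower, where the background was 7.67% and 14.4%. Hoxb9 was again higher (12.5 against 2.42 CPM, 2.37, 1.23 to 3.82), and Hoxc10 was at least 2.01-fold higher. Hoxa2 at -1.43, Hoxa3 at -1.33 and Hoxc4 at -1.01 were lower, although all ratios moved up by 0.23 under TMM scaling, which left 2. KO against WT gave 0 of 14 either way under saline, where 3.09% and 3.09% were called. Under AngII it gave 3 of 20 higher (Hoxb9 1.35, Hoxc9 1.21 and Hoxc10 at least 14.5-fold) and 1 lower (Hoxa2, -1.19), where 1.96% and 5.71% were called. Fibroblast sums under saline were small, at 1424 and 844 Hox UMIs against 4414 and 7341 under AngII.

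The KO AngII RNA of paralogues 10 and 11 was detected in a minority of smooth muscle cells, some of which carried at least 2 such genes. With 991 UMIs of these genes over 5427 cells, a cell without a UMI may still hold the RNA. Cells with a UMI of paralogue 10 or 11 numbered 34, 5, 17 and 648, and those with at least 2 such genes 2, 0, 1 and 119. In KO AngII, 369 cells had Hoxa10, 373 had Hoxc10 and 107 had both, against 25.4 if the 2 were independent. Deeper cells raise such counts. In cells thinned to 3000 UMIs over the 4 libraries, the pair was found in 24 cells against 5.70 under independence, a ratio of 4.21 (2.70 to 6.27) that was above 1 in 1 of 4 libraries. Hoxa10 with 9788 other genes had a median ratio of 0.974, with percentiles 5 to 95 at 0.380 to 1.66.

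Within KO AngII smooth muscle, after thinning, 340 cells with paralogue 10 or 11 were set beside 5087 without, a split that uses these genes only. Hoxa9 was found in 6.76% (4.34-9.98) and 1.02% (0.764-1.34) of them, Hoxc9 in 5.88% and 0.806%, Hoxc8 in 5.59% and 1.40% and Hoxd8 in 3.53% and 0.944%. Some genes of lower paralogue number were less often found in the same cells. Hoxb2 was in 3.82% (2.05-6.45) and 9.34% (8.55-10.2), Hoxa3 in 3.24% (1.63-5.72) and 6.76% (6.09-7.49) and Hoxb4 in 1.76% (0.650-3.80) and 4.31% (3.76-4.90). Hoxa7 was found in 11.2% and 10.4%, with intervals that overlap. Outside Hox, Hand2, a cardiac and second heart field factor, was in 0.588% and 3.66%, and Twist1 in 0.882% and 3.85%, although over the 4 libraries Twist1 was not called by edgeR (adjusted p 0.62) and lay above 0 in 3 of them. Pax1, a sclerotome factor, was in 3.24% and 0.845%. Dlx5 and Msx2 had 0 positive of 340 (interval up to 1.08%), against 0.668% and 0.550%. These are shares of the cells of 1 library.

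**Figure D5:**
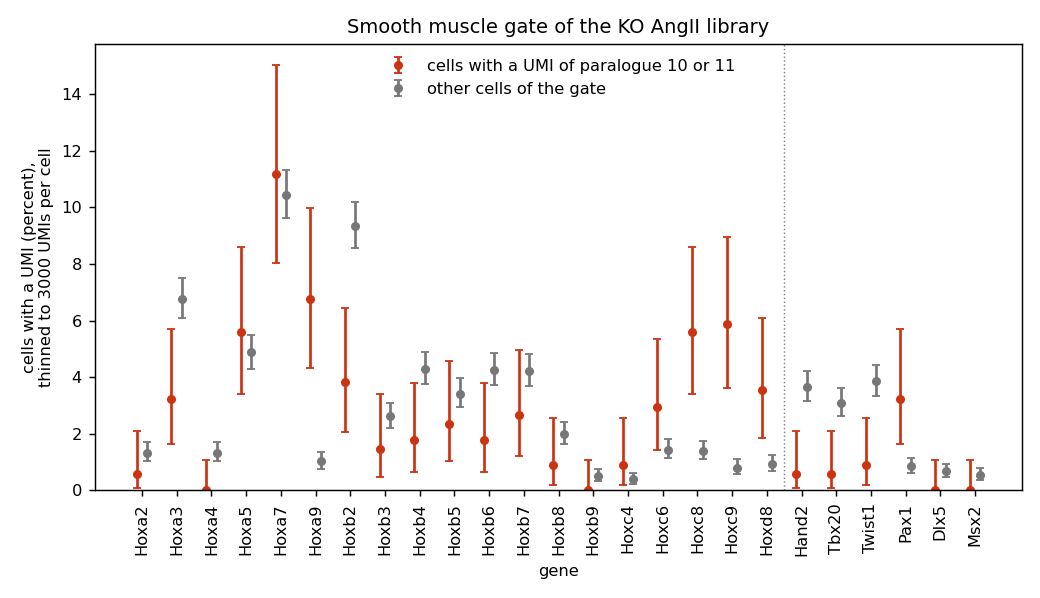
Percent of KO AngII smooth muscle cells with a UMI of each gene after thinning to 3000 UMIs (y axis), for 340 cells with a UMI of paralogue 10 or 11 (red) and 5087 without (grey), with exact 95% binomial intervals. Hoxa9, Hoxc8, Hoxc9, Hoxd8 and Pax1 lie higher in the red cells, and Hoxa3, Hoxb2, Hoxb4, Hand2, Tbx20 and Twist1 lie lower.

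The same question was asked over all 4 libraries by setting smooth muscle cells with any posterior UMI after thinning (85, 35, 77 and 464 cells) against the others, with the posterior genes left out of the test. edgeR with library as a block called 60 of 11801 genes higher (0.508%) and 98 lower (0.830%). Of 17 testable Hox genes of paralogues 1 to 8, 3 were higher and 1 lower. Hoxc8 gave a log2 fold change of 2.25 ± 0.40 (adjusted p 6.3e-06), Hoxd8 2.31 ± 0.47 (adjusted p 0.00026) and Hoxa7 0.62 ± 0.17 (adjusted p 0.021). Hoxa7 was higher in 4 of 4 libraries, Hoxc8 in 3 and Hoxd8 in 1, having no posterior-cell UMI elsewhere. Hoxb2 gave -0.94 ± 0.25 (adjusted p 0.016) and was lower in 3 of 4. The set rests on KO AngII: without it 4 genes were higher and 12 lower, with Hoxa7 at 0.99 and Hoxb7 at 1.54 the 2 Hox genes called higher and none lower, while Hoxc8 at 3.74 was not called. Hoxa7 lost its call without WT saline (0.60) or KO saline (0.41). Without the replicate block edgeR called 0 genes in either direction (953 genes had an unadjusted p under 0.05 with it), and DESeq2 called 3 higher and 1 lower.

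Among the genes past the test in one direction in all 4 libraries, the 10 furthest up were Tmeff2, P2rx1, Rgs5, Palld, Figf, Pgf, Cyp1b1, Ets2, Tes and Hoxa7, and those furthest down included Tmem204, Prss12, Tnnt2, Hand2, Dlgap1, Cd74, Ngef, Kcnj15 and Lpl. Rgs5, a regulator of G protein signalling found in pericytes and arterial muscle, gave 1.38 ± 0.10 (adjusted p 4.4e-42), and P2rx1, an ATP-gated channel of smooth muscle, 1.43 ± 0.18 (adjusted p 2.3e-12). By library Rgs5 was at 1.52, 0.88, 1.03 and 1.99. P2rx1 was at 0.28, 0.05, 0.61 and 1.83, so its estimate rests mainly on KO AngII. The SEs of 0.10 and 0.18 do not cover this spread between libraries. The SE and adjusted p of this split are therefore not read as a measure of that spread. Tnnt2, the cardiac troponin T gene also found in some aortic muscle, gave -3.37 ± 0.30 (adjusted p 4.0e-25) and Hand2 -2.86 ± 0.49 (adjusted p 4.2e-06). Tmem204 had no UMI in any posterior-positive set, so no fold is given. For several genes furthest down the common direction includes libraries with 0 UMIs in the posterior-positive set. Tnnt2, Hand2, Lpl and Cd74 had none in WT AngII, Ngef and Dlgap1 none in either WT library, and Prss12 had UMIs there in KO AngII only. Kcnj15 was at -1.99, -0.68, -0.50 and -3.88. Cd74 was at -0.28 in WT saline, -0.62 in KO saline and -3.09 in KO AngII. Both were thus furthest down in KO AngII among the libraries with a value. Cd74, the invariant chain of class II antigen presentation, is a leukocyte gene, and its part in the result was not tested.

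Smooth muscle cells with a UMI of Dlx5, Dlx6 or Msx2, factors of the neural crest and arch, numbered 151, 61, 145 and 65 after thinning. They had a Hox UMI of paralogues 4 to 8 in 29.8%, 14.8%, 27.6% and 29.2% of cells, against 41.0%, 33.1%, 39.2% and 31.8% without. In KO AngII these intervals overlapped, at 18.6-41.8% and 30.6-33.1%. A posterior UMI was found in 1, 0, 0 and 0 of them, against 1.20%, 0.624%, 0.89% and 8.65% of cells without. The upper limits of the exact intervals for the former were 3.63%, 5.87%, 2.51% and 5.52%. Only in KO AngII did this limit lie below the share without. For paralogues 1 to 3 the shares were 28.5%, 24.6%, 31.0% and 29.2%, against 27.2%, 25.3%, 28.1% and 18.3%.

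Pairs of Hox genes were compared for how often 1 thinned smooth muscle cell held both. Over 146 pairs with at least 5 cells expected, the median of observed over expected was 1.11, with 1.19 for pairs within a cluster and 1.08 for pairs across clusters. In 39 pairs the interval, which covers counting error only, lay above 1 and in 10 below. The share of such pairs among other genes was not counted. Hoxa7 and Hoxb8, of different clusters, were found together in 219 cells against 113 expected, a ratio of 1.94 (1.69 to 2.22) that was above 1 in 4 of 4 libraries. Hoxb7 with Hoxb9 gave 2.96 (1.73 to 4.75) and Hoxa7 with Hoxc6 2.22 (1.73 to 2.81). Among the 10 low pairs, Hoxa3 with Hoxc8 gave 0.182 (0.0220 to 0.657), Hoxb2 with Hoxc10 0.453 (0.196 to 0.893) and Hoxa10 with Hoxb2 0.355 (0.130 to 0.772). With 9788 other genes, percentiles 5 to 95 of the ratio spanned 0.324 to 1.80 for Hoxc8, 0.365 to 1.66 for Hoxc10 and 0.380 to 1.66 for Hoxa10. Hoxb2 with Hoxc10 thus lay within the span of Hoxc10, and Hoxa10 with Hoxb2 just below that of Hoxa10. The spans of Hoxa7 and Hoxb2 were narrower, at 0.846 to 1.14 and 0.864 to 1.15.

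Cofactors and regulators of the clusters were described from lists of known genes, to be read against the 24.3% of all genes higher and 24.7% lower in fibroblasts than in smooth muscle. Of 9 TALE cofactors, Meis2 was in smooth muscle at 66.4, 38.4, 60.6 and 38.8 CPM. In fibroblasts against smooth muscle, 1 of 9 was higher (Meis2, log2 fold change 0.41) and 2 lower, including Pbx3 (-0.42). Of the retinoic acid and Cdx list, 12 of 16 were tested, with 8 higher and 1 lower, and the median was 1.40 against -0.02 for all genes. The higher ones included the retinoic acid synthases Aldh1a1 (5.69), Aldh1a2 (6.36) and Aldh1a3 (4.87) and the receptors Rara (1.02) and Rarg (1.21). A retinoic acid breakdown enzyme was also among the higher genes, and the 1 lower gene was a receptor. No direction of signalling is therefore read from the list. Of 21 Polycomb and Trithorax genes 4 were higher and 7 lower, near the shares over all genes. The higher ones were Cbx2 (1.41), Cbx8 (0.82), Ezh2 (0.46) and Rnf2 (0.40). The lower ones included Bmi1, a Polycomb repressive complex subunit, at -0.95. Kmt2a, the Trithorax methyltransferase, was also among them at -0.43, and was lower in 3 of 4 libraries.

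Of the noncoding genes of the clusters 7 of 14 were tested, with 0 higher and 2 lower, too few to read against those shares: Hotairm1, of the HoxA cluster, gave -1.37 and Hoxb3os -0.56. Hoxd3os1 had 7, 5, 11 and 107 UMIs in smooth muscle, following Hoxd8 and Hoxd9, with which it shares the HoxD locus. It overlaps Hoxd8 on the other strand, so reads of the pair cannot be told apart without strand. Hoxd3os1 was higher in posterior-positive cells (2.91 ± 0.54, adjusted p 2.0e-05) and in endothelial cells (4.50 ± 0.88, adjusted p 0.00042). The first difference was seen in WT saline and KO AngII only, with no posterior-cell UMI in WT AngII or KO saline. Between posterior-positive and other smooth muscle cells edgeR called 0 of 8 TALE, 0 of 8 retinoic acid and 0 of 20 Polycomb genes, where 0.508% of all genes were higher and 0.830% lower, so nothing is read from these zeros. Of 17 other positional factors tested there, 2 were higher, including Pax1 (2.10), and 2 lower, Hand2 and Tbx20 (-1.96). Pax1 was higher in WT saline and KO AngII only, with no posterior-cell UMI in WT AngII or KO saline.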

How the data were processed

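Per the labels' protocols, cells were captured with a 10x Genomics 3′ v3 kit and sequenced on a NovaSeq instrument. Per the submitters' processing notes Cell Ranger and the mm10 build were used. The authors deposited UMI counts per gene and cell, not normalized, 1 table per library. Cells under 500 detected genes or above 20% mitochondrial UMIs were dropped. No doublet caller was run, so gated cells may hold doublets. CPM are UMIs of a gene per 1000000 UMIs of its gate and library. UMIs count 3′ ends and were not divided by length. Gate sums were tested with edgeR 4.0.16 (R 4.3.3), with DESeq2 1.42.0 as an alternative, at an adjusted p of 0.05. Both gates come from each library, which pairs them. Members with at least 100 UMIs over the libraries in the smooth muscle or fibroblast gate, 24 of 31, were valued per library, and 7 fell under this. Of these, Hoxd9 and Hoxa11 are also given per library, chosen after their values were seen. Genes outside the clusters were named where they passed the test or the fold, and for the posterior split the 10 furthest in each direction. Members and lists were chosen with earlier results of these data known. The edgeR script was tested on simulated counts. Some genes are not reported here.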

Additional observations from a re-analysis of the deposited data

Results flagged for a closer look

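In smooth muscle the log2 ratio of AngII over saline had opposite signs under the 2 genotype labels for 5 Hox genes whose intervals both lay off 0. Hoxa9 was at -0.95 in WT and 1.90 in KO. Hoxc6 was at -0.38 and 0.63, Hoxc8 at -1.62 and 2.15 and Hoxc9 at -2.00 and 2.55. Hoxb2 was at 0.24 and -0.33. The difference between genotypes was not tested, since each group is 1 library. All 4 libraries enter each pair of ratios.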

How the results depend on the processing

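Values that moved are given in library order (WT saline, WT AngII, KO saline, KO AngII). With posterior restricted to paralogues 10 to 13, its share of Hox UMIs was 0.254%, 0.0340%, 0.0860% and 7.58% in smooth muscle, 0.211%, 0.0227%, 0 and 1.31% in fibroblasts, and 0.528%, 0.200%, 0.923% and 1.62% under the endothelial rule. With stricter gates the endothelial share was 21.9%, 26.6% and 15.5% (WT saline, KO saline, KO AngII), the summed Hox CPM there 616, 477 and 421, and the posterior-positive cells 27.3%, 40.4% and 31.6%. In stricter smooth muscle, the summed CPM was 319 and 246 in WT and the KO AngII posterior share 12.3%. Without cells above 2.5 times the median UMIs, that share was 12.8%, and KO saline fibroblasts summed to 368 CPM. Posterior-positive cells thinned to 3000 UMIs were 1.13%, 0.582%, 0.978% and 8.37% in smooth muscle, 1.77%, 1.5% and 5.91% in fibroblasts (from WT AngII on) and 2.75%, 1.69%, 3.76% and 4.76% under the endothelial rule. At 2000 UMIs they were 0.926%, 0.512%, 0.640% and 6.17%, then 0.632%, 1.47% and 4.31% (WT saline and both AngII) and 2.07%, 1.13%, 4.03% and 4.08%.

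Hox genes 2-fold apart numbered 0 in WT for AngII against saline in either gate at 200 UMIs, 2 in KO fibroblasts and 2 for KO against WT fibroblasts under AngII, where 20 UMIs gave 7. For KO against WT under saline, 20 UMIs gave 2 in smooth muscle and stricter gates 2 in fibroblasts. For fibroblasts against smooth muscle, the fit with no replicate block called 0 Hox genes lower, and leaving out 1 library gave 4 to 7 higher and 2 to 4 lower. The endothelial contrast, added after seeing the data, had 0 lower by DESeq2, and 5 to 7 higher and 0 to 1 lower on leaving out 1 library. For the posterior split, DESeq2 called 3 higher and 1 lower, no replicate block 0 and 0, thinning to 2000 UMIs 23 and 51, at least 2 posterior UMIs 11 and 7, and leaving out 1 library 4 to 64 and 12 to 98. Its Hox genes of paralogues 1 to 8 numbered 1 and 0 by DESeq2, 0 and 0 with no block or at least 2 posterior UMIs, 0 lower at 2000 UMIs or with stricter gates, and 2 to 3 and 0 to 1 on leaving out 1 library. Reversed were Hoxc10 between fibroblasts and smooth muscle on leaving out 1 library (-1.91 to 0.27, the latter without KO AngII) and Ets2 with at least 2 posterior UMIs (-0.19). The cause was not tested. The block is the library from which both gates come. Across all settings, 191 summary values stayed close to the main value and 85 moved. Of the checks on other values, 775 stayed the same and 135 were weaker, meaning that a call was lost. A further 3 were stronger, 4 moved and 2 reversed. With 1 pooled library per group, no setting supplies a replicate, and endothelial values rest on 40 to 288 Hox UMIs.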
